A study of Mus musculus with 8 samples.

Results

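The nuclear-encoded subunits of oxidative phosphorylation were followed in mouse embryonic fibroblasts with and without the m6A methyltransferase Mettl3, in total poly(A) RNA and in RNA of a stress granule fraction. Members were protein-coding genes picked by a rule on gene symbols, and the set was chosen with earlier results of these data known. The rule took complex I (Nduf a, b, c, s and v series), complex II (Sdha to Sdhd) and complex III (Uqcr series and Cyc1). It also took complex IV (Cox4 to Cox8 series) and complex V (Atp5 series). The rule gave 86 genes, of which 85 were in the count table of 39017 gene identifiers, and 83 were among the 18952 genes that passed the filter on low counts. Complex I held 35 of them, complex II 4, complex III 9, complex IV 20 (18 tested) and complex V 18 (17 tested); Ndufa4 and Ndufa4l2 were placed with complex IV. Cox7b2 and Cox8c were in the table but too low to test, and another gene with the symbol Atp5o was not analysed here.

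Oxidative phosphorylation moves electrons from NADH and succinate through complexes I to IV of the inner mitochondrial membrane to oxygen, and complex V, the ATP synthase, uses the proton gradient this builds to make ATP. Complexes I, III, IV and V join subunits encoded in the nucleus, translated in the cytosol and imported, with a few encoded in mitochondrial DNA, whereas complex II is wholly nuclear-encoded and is also an enzyme of the citric acid cycle. Stress granules are assemblies of mRNA and protein that form when translation initiation stops, and N6-methyladenosine (m6A), which Mettl3 deposits, is a modification of mRNA studied for its link to the granules' mRNA content. Several complex IV subunits exist as pairs of genes, a form found in most tissues and a form of muscle, heart, lung or testis.

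The 8 libraries made 4 groups of 2 replicates. Control total and knockout total were poly(A) RNA of unstressed cells, and control granule and knockout granule were poly(A) RNA of a fraction enriched for granules by centrifugation after 500 µM sodium arsenite for 30 min. All cells were embryonic fibroblasts of E13.5 embryos, with the genotype labelled control or Mettl3 knockout. Knockout was induced through Cre with 500 nM 4-hydroxytamoxifen for 48 h, and the loss of Mettl3 was checked after 7 days. The labels do not say which alleles the control cells carried or whether they received the drug. The promoter that drives Cre is not given in the sources used here. Since each granule library came from stressed cells and each total library from unstressed cells, the fraction and the stress cannot be told apart. The submitters describe the 2 libraries of a group as biological replicates but name no separate cultures or embryos; if they share a source, p-values may measure only the spread between these samples.

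Mettl3 was read first, as a check of the labels. Its level was 25.4 and 24.9 CPM (counts scaled to library size) in control total, 15.7 and 15.4 in control granule, 6.004 and 7.35 in knockout total, and 5.56 and 6.38 in knockout granule. The knockout libraries were lower than the controls in each fraction, with log2 fold changes (± SE) of -1.91 ± 0.27 (adjusted p = 0.0345) in total RNA and -1.38 ± 0.26 (adjusted p = 0.0208) in granule RNA. Libraries held 67257220 to 123508539 counts. All 8 fibroblast markers (Col1a1, Pdgfra, Vim and others) were above 1 CPM in the mean, with a summed level of 6027 to 8961 CPM over the libraries. Summed macrophage markers lay at 26.7 to 58.6 CPM, endothelial at 6.35 to 20.5, erythroid at 31.3 to 92.4 and neural at 19.8 to 48.3. The 4 epithelial markers summed to 204 to 336 CPM in control total, 677 to 713 in control granule, 49.1 to 89.5 in knockout total and 527 to 664 in knockout granule, nearly all of it Krt18. The part these markers have in any difference below was not tested, and in bulk RNA fewer cells of a type and less RNA per cell cannot be told apart.

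Knockout total replicate 1 stood apart in the members' levels. Among the 78 members whose mean reached 5 CPM, it differed from the median of the 6 libraries of other groups by a median of 1.006 (absolute log2 difference), where the other 7 libraries gave 0.264 to 0.694. Replicates of a group were apart by a median of 1.02 (absolute log2 ratio) in knockout total, 0.28 in control total, 0.27 in control granule and 0.07 in knockout granule. In knockout total, 40 of the 78 differed by more than 2-fold between replicates (51.3%), and 32 of these were lower in replicate 1; over all 10261 genes at that level the share was 40.1%. The ratio of replicate 1 to replicate 2 went with GC content in both total groups, in opposite directions. Spearman's rho in knockout total was -0.37 over the 78 members and -0.73 over all genes at that level. It was 0.57 and 0.76 in control total, -0.37 and -0.16 in control granule, and -0.27 and 0.04 in knockout granule. Within a group all points share the same pair of libraries. In control granule, where spread was smaller, 74 of the 78 members were lower in replicate 1, with a median log2 ratio of replicate 1 to replicate 2 of -0.27 beside 0.03 over all genes at that level. Transcripts of the mitochondrial chromosome took 7.60% of counts in knockout total replicate 1 and 6.16% and 8.81% in knockout granule. They took 0.807% in knockout total replicate 2 and 0.590% to 0.881% in the 4 control libraries, so on this measure replicate 2 was the knockout library near the controls. Medians and counts over the members that moved without knockout total replicate 1 are given both ways below. So are the main counts of other gene lists, except citric acid cycle enzymes, for which only medians are given both ways. Single subunits come from the fit over all 8 libraries unless stated. Without it the knockout total group is a single library assumed to vary like the other groups.

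**Figure D1:**
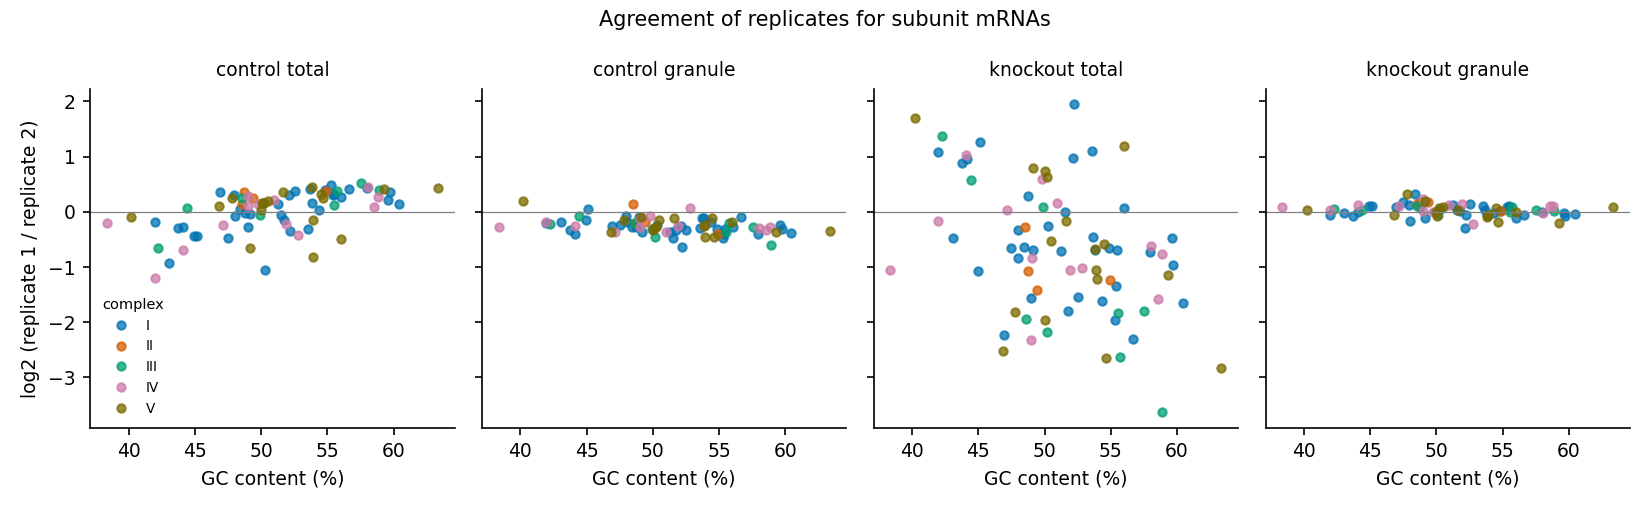
Log2 ratio of replicate 1 to replicate 2 (vertical axis) against transcript GC content in percent (horizontal axis) for the 78 subunit mRNAs with a mean of at least 5 CPM, 1 panel per group, coloured by complex. Points lie near 0 in knockout granule, below 0 for 74 of 78 in control granule, and spread from -3.63 to 1.94 in knockout total.

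The promoters of a few members are shown because levels differed most between the widespread and the tissue-restricted form of a subunit. RefSeq promoters of GRCm38.p6 (250 bases before to 50 after each start) were at hand for 66 of the 86 members, 71 promoters in all. Each line gives the 150 bases that end just before the annotated start, 5′ to 3′ on the gene's strand. Cox8a (chr19:7217617-7217766, minus strand) and Cox8b (chr7:140900447-140900596, minus strand) encode the widespread and the muscle form of the same complex IV subunit; Uqcrh (chr4:116075072-116075221, minus strand) and Ndufa11 (chr17:56717612-56717761, plus strand) show an ETS-type and an NRF1 match. Capitals mark the motif match.
Cox8a: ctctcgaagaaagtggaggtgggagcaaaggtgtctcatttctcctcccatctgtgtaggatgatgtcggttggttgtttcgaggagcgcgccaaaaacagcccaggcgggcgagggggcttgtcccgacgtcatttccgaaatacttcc
Cox8b: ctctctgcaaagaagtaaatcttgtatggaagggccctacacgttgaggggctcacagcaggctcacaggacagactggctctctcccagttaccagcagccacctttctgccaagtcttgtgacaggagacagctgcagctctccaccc
Uqcrh: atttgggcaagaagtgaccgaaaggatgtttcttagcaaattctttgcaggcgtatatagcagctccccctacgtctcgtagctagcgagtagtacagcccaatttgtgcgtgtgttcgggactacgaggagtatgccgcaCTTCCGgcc
Ndufa11: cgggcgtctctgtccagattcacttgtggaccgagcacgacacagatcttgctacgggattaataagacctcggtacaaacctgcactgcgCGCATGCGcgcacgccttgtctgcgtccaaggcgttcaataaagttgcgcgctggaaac

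Cox8a and Cox8b windows had the same GC content (55.3%), but Cox8a held 10 CpG dinucleotides and Cox8b 1. The 71 member promoters had a median of 10 CpG in such a window (range 1 to 23), against 4 over all 32851 promoters. Next, 4 short motifs were searched on both strands of the whole 300-base promoters. NRF1, a transcription factor of many respiratory genes, was searched as CGCATGCG and matched in 9 of 71 member promoters (12.7%) and in 1.87% of all promoters. The ETS-type core CGGAAG, bound by the GABP factor also known as NRF2, matched in 27 (38.0%) against 16.9% of all. The YY1 motif AAGATGGC matched in 9 (12.7%) against 2.75%, and the TATA box letters TATAAA in 8 (11.3%) against 13.6%. No matches of different motifs overlapped in the member promoters. Uqcrh held its ETS match 10 bases before the start, where the capitals CTTCCG are CGGAAG on the other strand, and Ndufa11 its NRF1 match 59 bases before it. An ETS match of Cox8a crosses the end of its printed window and is not in capitals. These matches describe letters in a window and are not measured sites.

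The paired forms differed widely in level. Cox8a lay at 389 and 367 CPM in control total, 223 and 279 in control granule, 110 and 330 in knockout total, and 293 and 271 in knockout granule. Cox8b lay between 0.0108 and 0.373 CPM in all 8 libraries, far below Cox8a in each. Cox4i1, the common form of a regulatory complex IV subunit, stood at 679 and 494 CPM in control total, while its lung form Cox4i2 lay at 0.324 to 1.39 CPM over the 8 libraries. Cox7a2 stood at 92.1 and 107 CPM in control total against 0.485 and 0.604 CPM for the muscle form Cox7a1. Cox6b1 stood at 99.7 and 86.4 CPM against 0.279 and 0.129 CPM for the testis form Cox6b2. Ndufa4 stood at 73.7 and 119 CPM against 1.81 and 2.23 CPM for its paralog Ndufa4l2. Cox7b2 did not exceed 0.118 CPM and Cox8c 0.0294 CPM in any library. Cox6a2, the heart and muscle form of Cox6a1, was the exception among these paralogs at 8.03 and 10.8 CPM in control total, beside 418 and 346 CPM for Cox6a1.

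Per kilobase of merged exon, the median member in control total stood at 48.6 CPM per kb in complex I, 63.7 in complex II, 110 in complex III, 73.3 in complex IV and 83.8 in complex V. The SD of these medians over the 2 libraries was 1.45, 8.62, 27.8, 7.504 and 16.7 CPM per kb in the same order. In control total complex I lay below the others, while neighbours in the order II, IV, V and III did not separate beyond their spread. Averaged over the 4 groups, the highest members per kilobase were Ndufa2 (complex I), Sdhd (II), Uqcr11 (III), Cox8a (IV) and Atp5b (V), at 210, 125, 298, 610 and 672 CPM per kb in control total. Atp5b encodes the catalytic beta subunit of the ATP synthase. With transcript lengths in place of merged exons, Ndufb9 (311) and Cox4i1 (767) replaced Ndufa2 and Cox8a, and Atp5b stood at 1487 CPM per kb. By principal transcript length, complex V (median 196, SD 2.61) lay above complex IV (151, SD 14.7) in control total, beyond their spread. The order of single members and the separation of complexes therefore depend on which length is used.

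Together the 85 members took 1.55% and 1.42% of all counts in control total, 0.984% and 1.14% in control granule, 0.727% and 1.21% in knockout total, and 0.957% and 0.916% in knockout granule. The Wilson 95% interval of the highest share ran from 1.548% to 1.554%; such intervals cover counting error only, since PCR copies are not told apart. The control total libraries were above all others. Complex V gave the largest share in every library, 0.687% and 0.607% in control total against 0.329% and 0.321% in knockout granule. Complex I gave 0.335% and 0.317% in control total against 0.242% and 0.234% in knockout granule. Complex II gave 0.0692% and 0.0619% against 0.0379% and 0.0337%, and 0.0599% and 0.0626% in control granule. Complex III took 0.199% and 0.173% in control total and 0.129% and 0.124% in knockout granule, and complex IV 0.261% and 0.257% against 0.219% and 0.203%. Because mitochondrial transcripts took 6.16% and 8.81% of knockout granule counts, the members' share there is 1.02% and 1.005% when those transcripts are set aside.

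**Figure D2:**
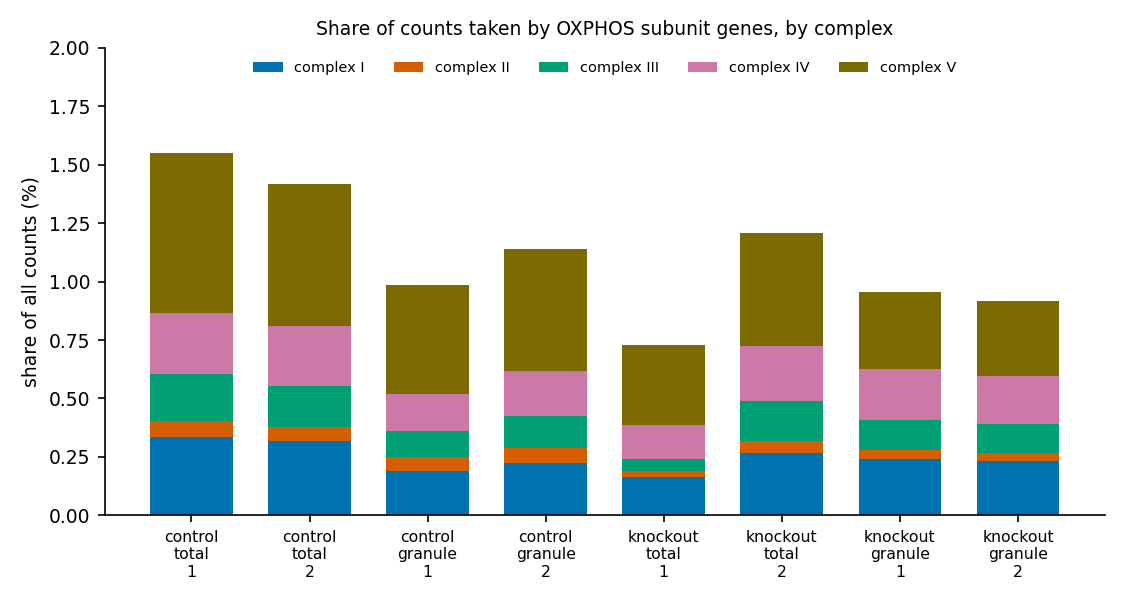
Share of all counts in percent (vertical axis) taken by subunit genes of complexes I to V, stacked, in each of the 8 libraries. Control total libraries reach 1.55% and 1.42%, and knockout total replicate 1 is lowest at 0.727%.

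In control cells the granule fraction held a lower level of most subunit mRNAs than total RNA. The median log2 fold change of control granule against control total was -0.42 over the 83 members (-0.59 to -0.21 over the 4 pairings of single libraries), beside -0.06 over all tested genes. With a trend with transcript length removed the median was -0.25, and it was also -0.25 without control granule replicate 1. Uqcrh rose, and Cox6a2 and Ndufv3 fell. These were 1 of 83 members called higher and 2 called lower at an adjusted p under 0.05 by edgeR's quasi-likelihood test, where 5.89% of all tested genes were called higher, 4.17% lower and 10.1% in either direction. For 53 members both granule libraries lay below both total libraries (37.3% of all genes did so), and for 16 both lay above (35.2%). Complex medians were -0.46 in I, -0.20 in II, -0.32 in III, -0.43 in IV and -0.32 in V, ranges over pairings overlapping in all 5. Without knockout total replicate 1, which does not enter this contrast except through the shared estimate of spread, 9 members were called higher and 39 lower, among 21.5% and 19.1% of all genes. More members were called without knockout total replicate 2 than over all 8 libraries, and fewer with any control or knockout granule library left out. The share of all genes called in those fits is not given here.

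In knockout cells the members lay on both sides of total RNA, 49 above 0 and 34 below. The median log2 fold change of knockout granule against knockout total was 0.19 (-0.13 to 0.74 over pairings) and -0.14 without knockout total replicate 1, so its sign rested on that library; with a trend with GC content or transcript length removed it was -0.03 or -0.13. Uqcrh, Ndufb5 and Cox6b2 rose, and Cox6a2, Uqcrc2 and Ndufc2 fell. These 3 higher and 3 lower calls stood beside 9.17% and 8.47% of all genes (17.6% in either direction). Complex medians were 0.20 in I, -0.02 in II, 0.48 in III, 0.28 in IV and 0.03 in V; without knockout total replicate 1 they were -0.02, -0.44, -0.19, -0.10 and -0.19, all below 0. Without knockout total replicate 1, 5 members were called higher and 18 lower, among 17.6% and 16.5% of all genes. Without knockout total replicate 2 more members were called than over all 8 libraries, and with any control or knockout granule library left out fewer were. The share of all genes called in those fits is not given here.

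In total RNA no member was called between knockout and control by edgeR's quasi-likelihood test. The median log2 fold change was -0.50 (-1.10 to -0.18 over pairings) and -0.21 without knockout total replicate 1. By that test 0.412% of all genes were called in either direction. At an unadjusted p under 0.05 it gave 19 members, beside 4705 of all 18952 genes. DESeq2 called 6 members, and the share of all genes it called is not given here. Both knockout libraries lay below both control libraries for 40 members (24.7% of all genes) and above for 9 (24.4%). Complex medians were -0.52 in I, -0.82 in II, -0.50 in III, -0.35 in IV and -0.62 in V. They were nearer 0 without knockout total replicate 1, at -0.29, -0.51, -0.09, -0.07 and -0.26. Without knockout total replicate 1, Cox6a2 was called higher and Sdha and Ndufb10 lower, 3 members where 5.52% of all genes were called. Leaving out knockout total replicate 2, so that replicate 1 stood alone for the group, raised the number of called members. The share of all genes called in that fit is not given here.

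In granule RNA, Sdha, Atp5b and Atp5a1 fell in the knockout. No member was called higher, and the 3 lower calls stood beside 3.66% of all genes called lower, 5.79% higher and 9.45% in either direction. The median over members was 0.07 (-0.07 to 0.22 over pairings), with 47 members above 0 and 36 below. It was -0.17 with a trend with transcript length removed and -0.11 without control granule replicate 1. Both knockout granule libraries were above both control granule libraries for 34 members (40.4% of all genes) and below for 29 (36.6%). Complex medians were 0.16 in I, -0.34 in II, 0.03 in III, 0.34 in IV and 0.01 in V; all 4 complex II members were below 0 and did not overlap the controls. Without knockout total replicate 1, 15 members were called higher and 15 lower, among 19.6% and 19.4% of all genes. More members were called without knockout total replicate 2 than over all 8 libraries, and fewer with any control total or granule library left out. The share of all genes called in those fits is not given here. The fold changes of this comparison rest on the 4 granule libraries, and its spread is estimated over all 8.

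The difference between genotypes in the granule-to-total ratio was tested as an interaction. By edgeR's quasi-likelihood test no member was called, and 0.517% of all genes were. At an unadjusted p under 0.05 that test gave 15 members, beside 4898 of all 18952 genes. DESeq2 called 2 members, and the share of all genes it called is not given here. The median of the difference, knockout minus control, was 0.55 (0.05 to 1.35 over pairings) and 0.18 without knockout total replicate 1. Without that library 6 members were called, where 18.6% of all genes were: Ndufv3, Atp5e and Ndufa13 had a higher ratio in the knockout, and Ndufs1, Sdha and Atp5a1 a lower one. Leaving out knockout total replicate 2 raised the number of called members, and the share of all genes called in that fit is not given here. The granule-to-total comparisons of the 2 genotypes share no library with each other, but each shares its libraries with the comparisons between genotypes.

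**Figure D3:**
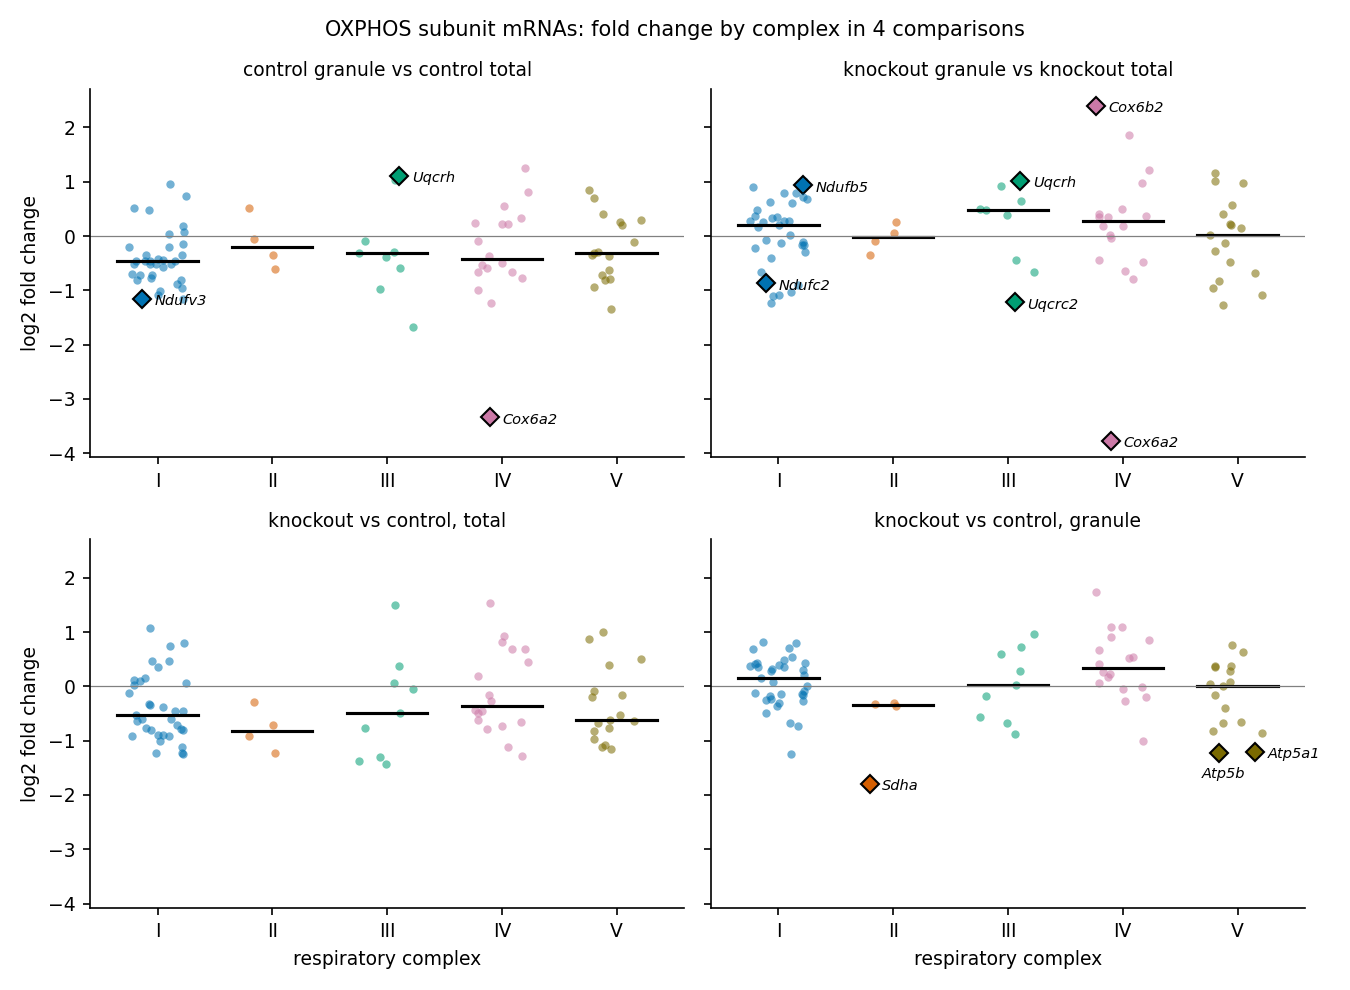
Log2 fold change (vertical axis) of the 83 tested subunit mRNAs by complex (horizontal axis) in 4 comparisons. Each point is a gene, the bar is the median of the complex, and named diamonds are genes called at an adjusted p under 0.05. Control granule against control total has medians below 0 in all 5 complexes, and Sdha, Atp5b and Atp5a1 are the 3 called in granule RNA between genotypes.

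Complex I takes electrons from NADH through the flavin subunit Ndufv1 and a chain of iron-sulfur subunits to ubiquinone. Ndufv3 is an accessory subunit of its NADH-binding arm (chromosome 17, 31520115 to 31531331, plus strand, GRCm38). Its level was 69.2 and 57.2 CPM in control total, 25.6 and 31.1 in control granule, 42.8 and 41.0 in knockout total, and 48.2 and 51.8 in knockout granule. Control granule was below all other libraries. In control cells the granule level was 2.23-fold below total (log2 -1.16 ± 0.26, adjusted p = 0.0316), and in knockout cells the difference was 0.26 (adjusted p = 0.52). The difference between these ratios was 1.41 ± 0.36 (adjusted p = 0.096), and 1.43 ± 0.28 (adjusted p = 0.00558) without knockout total replicate 1. The call in control cells was lost when any control or knockout granule library was left out (adjusted p 0.0954 to 0.295), and when a trend with GC content was removed.

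Ndufs1, the largest complex I subunit and the carrier of several of its iron-sulfur clusters, went the other way. Its level was 25.8 and 35.1 CPM in control total, 60.4 and 58.3 in control granule, 72.3 and 30.1 in knockout total, and 25.8 and 24.1 in knockout granule. Control granule lay above control total without overlap, and knockout granule lay below control granule. The log2 fold change in granule RNA was -1.25 ± 0.41 (adjusted p = 0.096), and -1.26 ± 0.18 (adjusted p = 0.000184) without knockout total replicate 1. The interaction was -2.00 ± 0.58 (adjusted p = 0.108), and -1.24 ± 0.28 (adjusted p = 0.0105) without that library.

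Ndufv1, Ndufs3, Ndufs7 and Ndufs8, core subunits of complex I, were not called in any comparison over all 8 libraries. Ndufv1 stood at 258 and 193 CPM in control total and 172 and 183 in control granule; knockout total gave 32.2 and 160 (4.95-fold apart), and knockout granule gave 155 and 161. Ndufs3, Ndufs7 and Ndufs8 had log2 fold changes of -0.82, -0.46 and -1.005 in control granule against total. Ndufs8, an iron-sulfur subunit close to the quinone site, stood at 200 and 152 CPM in control total and 78.3 and 96.9 in control granule without overlap (adjusted p = 0.0722). Ndufb8, a membrane-arm accessory subunit often used as a marker of assembled complex I, stood at 116 and 91.1 CPM in control total and 48.5 and 58.2 in control granule. Its knockout total libraries, 16.8 and 79.2 CPM, differed from each other more than either group of controls did.

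Among the accessory subunits, Ndufb5 and Ndufc2 were called in knockout cells. Ndufb5 stood at 16.7 and 20.9 CPM in knockout total and 33.8 and 37.8 in knockout granule (log2 0.93 ± 0.26, adjusted p = 0.0432). Its control libraries lay at 24.9 and 26.3 in total and 27.2 and 31.0 in granule RNA, a smaller step in the same direction. Ndufc2 stood at 60.6 and 49.9 CPM in knockout total and 31.1 and 29.3 in knockout granule (log2 -0.87 ± 0.25, adjusted p = 0.0494); control cells gave 49.0 and 49.7 against 32.5 and 39.3. Both calls were lost when any control or knockout granule library was left out. Ndufa13, an accessory subunit, stood at 204 and 185 CPM in control total and 103 and 135 in control granule. It stood at 49.8 and 157 in knockout total and 191 and 195 in knockout granule, so that granule was above total in the knockout and below it in the control. Its interaction was 1.60 (adjusted p = 0.18), and 0.99 ± 0.27 (adjusted p = 0.0252) without knockout total replicate 1. Ndufb10 stood at 101 and 80.3 CPM in control total against 29.8 and 48.0 in knockout total, with a log2 fold change of -1.22 (adjusted p = 0.128) over all 8 libraries and -0.91 ± 0.23 (adjusted p = 0.0337) without that library. Exons of Ndufa13 overlap an antisense gene, Tssk6, over 30.0% of their length, so its counts depend on whether strand was used. Over the 35 members of complex I, log2 values in granule RNA between genotypes ran from -1.25 (Ndufs1) to 0.82 (Ndufv3). In control granule against total 1 of the 35 was called lower and none higher over all 8 libraries; without knockout total replicate 1, 20 were called lower and 3 higher, where 19.1% and 21.5% of all genes were.

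Complex II oxidises succinate to fumarate, with the flavoprotein Sdha and the iron-sulfur protein Sdhb in the matrix and Sdhc and Sdhd in the membrane. Sdha (chromosome 13, 74322254 to 74350280, minus strand) had the largest called change of any member between genotypes in the fit over all 8 libraries. Its level was 227 and 206 CPM in control total, 326 and 294 in control granule, 103 and 125 in knockout total, and 93.7 and 84.7 in knockout granule. All 4 knockout values were under all 4 control values, and control granule lay above control total. In granule RNA Sdha was 3.47-fold lower in the knockout (log2 -1.80 ± 0.25, 95% interval -2.36 to -1.23, adjusted p = 0.00871). This call was lost only when a granule library was left out, among the alternatives run (adjusted p 0.107 to 0.130, with log2 values of -1.93 to -1.73). In total RNA the log2 fold change was -0.92 ± 0.24 (adjusted p = 0.131), and -0.79 ± 0.20 (adjusted p = 0.0371) without knockout total replicate 1. The interaction was -0.87 ± 0.34 (adjusted p = 0.163), and -1.02 ± 0.25 (adjusted p = 0.0138) without that library.

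The other 3 complex II subunits lay lower in knockout granule without a call. Sdhb stood at 95 and 125 CPM in control granule and 86.2 and 85.8 in knockout granule, Sdhc at 64.7 and 74.5 against 59.1 and 53.2. Sdhd stood at 139 and 158 CPM against 126 and 111. Their log2 fold changes were -0.36, -0.31 and -0.32, smaller than that of Sdha. Sdha was also the only member of complex II with granule above total in control cells, at 0.52 ± 0.24 (adjusted p = 0.19) beside -0.61 for Sdhb, -0.36 for Sdhc and -0.05 for Sdhd.

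**Figure D4:**
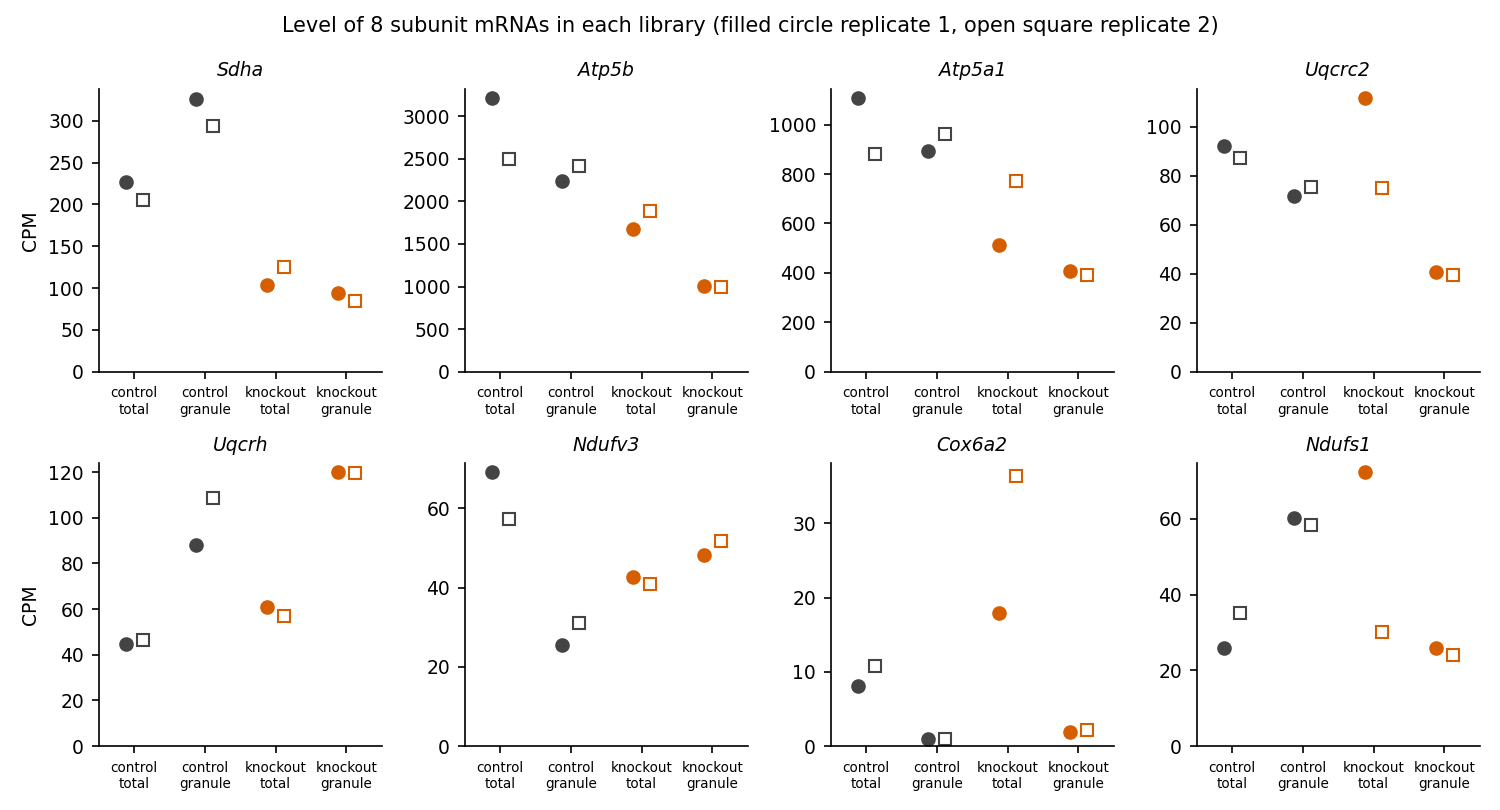
Level in CPM (vertical axis, from 0) of 8 subunit mRNAs in each library of the 4 groups (horizontal axis); filled circles are replicate 1 and open squares replicate 2. Sdha, Atp5b and Atp5a1 are lowest in knockout granule, Uqcrh is higher in granule than in total RNA in both genotypes, and Cox6a2 is lower there.

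Complex III passes electrons from ubiquinol to cytochrome c through the Rieske protein Uqcrfs1 and cytochrome c1 (Cyc1), with the core proteins Uqcrc1 and Uqcrc2 and several small subunits. Uqcrh, the hinge protein beside cytochrome c1 (chromosome 4, 116066965 to 116075071, minus strand), is the gene whose promoter with an ETS match is printed above. Its level was 44.7 and 46.6 CPM in control total, 87.9 and 109 in control granule, 61.1 and 57.2 in knockout total, and 120 and 120 in knockout granule. Granule libraries lay above total libraries in both genotypes without overlap. The log2 fold change was 1.11 ± 0.24 in control cells (2.15-fold, adjusted p = 0.0310) and 1.02 ± 0.24 in knockout cells (adjusted p = 0.0268), with an interaction of -0.09 (adjusted p = 0.89). In control cells the call was lost when any control or knockout granule library was left out and with library size alone as the scaling (adjusted p = 0.0509). In knockout cells it was lost when any library outside knockout total was left out, and the log2 value was 0.55 (adjusted p = 0.168) when a trend with transcript length was removed.

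Uqcrc2 stood at 92.2 and 87.3 CPM in control total, 71.8 and 75.3 in control granule, 112 and 75.2 in knockout total, and 40.6 and 39.5 in knockout granule. Knockout granule was below all other libraries. The log2 fold change of granule against total was -1.22 ± 0.27 in the knockout (adjusted p = 0.0221) and -0.29 in the control (adjusted p = 0.50). The call was lost when any granule library was left out. The antisense gene Pdzd9 overlaps 19.8% of its exon length. Uqcrc1 stood at 536 and 373 CPM in control total, 314 and 380 in control granule, 75.3 and 261 in knockout total, and 221 and 216 in knockout granule. Cyc1 stood at 271 and 312 CPM in control granule against 202 and 191 in knockout granule, and Uqcrfs1 at 113 and 130 against 111 and 103. All 4 core and catalytic subunits were lower in knockout granule than in control granule without overlap, as were 36.6% of all genes, with a median log2 fold change of -0.62 (-0.76 to -0.46 over pairings). All 5 small subunits had values above 0 there, from 0.03 for Uqcrb to 0.97 for Uqcrq, with a median of 0.60; these 2 sets were formed after the values were seen. Uqcrq, known as the ubiquinone-binding protein, stood at 370 and 330 CPM in control total and 92.2 and 127 in control granule, and at 210 and 220 in knockout granule. Its knockout total libraries, 122 and 554 CPM, were 4.52-fold apart, and no contrast of Uqcrq was called over all 8 libraries (control granule against total -1.67 ± 0.60, adjusted p = 0.107).

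Complex IV, cytochrome c oxidase, carries its catalytic centres on mitochondrially encoded subunits, and its nuclear-encoded subunits surround them. Cox6a2 (chromosome 7, 128205435 to 128206387, minus strand) had the largest called differences of any member between fractions over all 8 libraries. Its level was 8.03 and 10.8 CPM in control total, 0.951 and 0.905 in control granule, 17.9 and 36.3 in knockout total, and 1.84 and 2.14 in knockout granule. Total libraries lay above granule libraries in both genotypes, and knockout libraries lay above control libraries in both fractions. Granule was 10.1-fold below total in control cells (log2 -3.34 ± 0.41, adjusted p = 0.00737) and lower in knockout cells (log2 -3.77 ± 0.415, adjusted p = 0.00305). In total RNA the knockout was higher by 1.53 (adjusted p = 0.12), and by 1.95 ± 0.24 (adjusted p = 0.000442) without knockout total replicate 1; in granule RNA it was higher by 1.10 (adjusted p = 0.114). The call in control cells was lost when a control library was left out (adjusted p 0.0523 to 0.117), and the call in knockout cells when only the 2 knockout groups were fitted (adjusted p = 0.0655). An antisense overlap with Itgad covers 10.3% of its exons. Cox6a1, the common form, had log2 values of -0.49, 0.19, -0.73 and -0.05 for the same comparisons in control and knockout fractions, total RNA and granule RNA, none called.

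Of 5 tested muscle markers, Tnnt2 alone was called between genotypes. The 7 cardiac and skeletal muscle markers summed to 3.20 and 5.16 CPM in control total, 4.43 and 5.42 in control granule, 10.9 and 13.4 in knockout total, and 18.3 and 18.5 in knockout granule. Only 2 of the 7 had a mean above 1 CPM, and most of the sum was Tnnt2. The transcription factors Myod1 and Myog reached at most 0.0831 and 0.387 CPM. Tnnt2, cardiac troponin T, was higher in the knockout in total RNA (1.98, adjusted p = 0.035) and granule RNA (2.20, adjusted p = 0.0068). The muscle sum was not lower in granule than in total RNA, but this does not show which cells express Cox6a2. The part of muscle-like cells in the Cox6a2 result was not tested. The muscle forms Cox7a1 and Cox8b stayed at or below 1.26 and 0.373 CPM.

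Among the remaining complex IV members, Cox6b2 alone was called over all 8 libraries. Cox5a, which has a regulatory role, stood at 209 and 172 CPM in control total, 108 and 116 in control granule, 25.9 and 130 in knockout total, and 60.5 and 51.7 in knockout granule. Knockout granule lay below control granule (log2 -0.9995 ± 0.61, adjusted p = 0.32), with -1.01 ± 0.17 (adjusted p = 0.000478) without knockout total replicate 1. Cox5b stood at 207 and 193 CPM in control total and 90.3 and 110 in control granule (-1.002 ± 0.32, adjusted p = 0.0798). It stood at 102 and 184 CPM in knockout total and 105 and 104 in knockout granule, so that within the knockout only total replicate 2 stood above the granule libraries. Cox4i1 gave 333 and 407 CPM in control granule, 302 and 465 in knockout total, and 488 and 494 in knockout granule. Cox7a2l, a factor in joining complexes III and IV, stood at 119 and 108 CPM in control total and 70.0 and 73.8 in control granule, and at 219 and 145 against 104 and 105 in the knockout. Cox6b2 was called higher in knockout granule against knockout total (2.40 ± 0.68, adjusted p = 0.0466) at levels of 0.901 and 0.681 against 0.0629 and 0.239 CPM, under 1 CPM throughout. Cox7b, a small subunit, was the only member of complex IV with a log2 value above 1 in control granule against total, 24.9 and 57.1 against 91.6 and 104 CPM (1.26 ± 0.38, adjusted p = 0.0726).

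Complex V makes ATP in its catalytic F1 head, built of alpha (Atp5a1) and beta (Atp5b) subunits around gamma (Atp5c1), driven by a membrane ring of c subunits encoded by Atp5g1, Atp5g2 and Atp5g3. Atp5b (chromosome 10, 128083273 to 128090391, plus strand) was the most abundant member in CPM. Its level was 3206 and 2493 CPM in control total, 2235 and 2418 in control granule, 1679 and 1881 in knockout total, and 1010 and 989.9 in knockout granule. Every knockout library was below every control library, and knockout granule was lowest. In granule RNA it fell 2.33-fold (log2 -1.22 ± 0.26, adjusted p = 0.0301). Atp5a1 stood at 1108 and 882.7 CPM in control total, 892 and 960.6 in control granule, 513.8 and 770 in knockout total, and 408.5 and 391 in knockout granule. Again no knockout library reached a control library. Its change in granule RNA was -1.21 ± 0.29 (adjusted p = 0.0388). Both calls were lost when any control library or knockout granule library was left out (adjusted p 0.0525 to 0.287), and the log2 values stayed between -1.34 and -1.19.

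The rest of the F1 head divided. Atp5c1 stood at 179 and 217 CPM in control granule and 114 and 110 in knockout granule (-0.82 ± 0.28, adjusted p = 0.108). Atp5d, the delta subunit, stood at 261 and 337 against 280 and 321 CPM (0.01), and Atp5e, the epsilon subunit, at 46.2 and 63.4 against 87.3 and 98.8 CPM (0.76, adjusted p = 0.50). Atp5e was also low in control granule relative to control total, 150 and 127 CPM, and its interaction of 1.91 (adjusted p = 0.245) became 1.11 ± 0.30 (adjusted p = 0.0212) without knockout total replicate 1, which stood at 17.2 CPM beside 108 in replicate 2. The 3 c-ring genes encode the same mature protein with different targeting sequences. Atp5g1 stood at 173 and 161 CPM in control total and 76.1 and 97.6 in control granule, and Atp5g2 at 161 and 120 against 70.3 and 89.8. Atp5g3 stood at 238 and 207 CPM against 254 and 280, so 2 of the 3 lay lower in control granule and the third higher. In the knockout, granule libraries of Atp5g1, Atp5g2 and Atp5g3 gave 76.7 and 79.5, 62.9 and 59.0, and 174 and 164 CPM; none was called in any comparison over all 8 libraries.

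The membrane and stalk subunits of complex V showed no call. In granule RNA between genotypes the 4 small membrane subunits Atp5j2, Atp5k, Atp5l and Atp5mpl had log2 values of 0.35, 0.63, 0.07 and 0.38, all above 0. Atp5k stood at 70.2 and 96.7 CPM in control granule and 126 and 132 in knockout granule without overlap (adjusted p = 0.30), and was called without knockout total replicate 1 (0.62 ± 0.18, adjusted p = 0.0149). The peripheral stalk, which holds the head against the turning rotor, gave -0.87 for Atp5f1, 0.28 for Atp5h, 0.04 for Atp5j and 0.37 for Atp5o. Atp5f1 stood at 191 and 205 CPM in control granule against 116 and 101 in knockout granule (adjusted p = 0.15), and its knockout total libraries gave 292 and 168. Over the 17 tested members of complex V, the values ran from -1.22 (Atp5b) to 0.76 (Atp5e), so members of the same enzyme lay on both sides of 0.

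Across complexes, the change in granule RNA between genotypes went with coding length, a pattern noticed after the values were seen. Coding length was the longest annotated for each gene, so a gene's class depends on the transcript taken. For Ndufv3 it was 1404 nt, and the principal transcript has an internal exon of 1092 nt. The 11 members with at least 1000 nt of coding sequence and a mean of at least 5 CPM included Atp5a1, Atp5b, Ndufs1, Ndufv3, Sdha, Uqcrc1 and Uqcrc2. Their median log2 fold change was -0.68 (-0.81 to -0.57 over pairings), and 9 of the 11 were below 0; Ndufv3 (0.82) and Ndufa10 (0.08) were above. The 20 members from 500 nt to under 1000 nt had a median of -0.18 and the 47 shorter ones 0.27. Over all protein-coding genes at that level the medians were -0.23 (6979 genes), -0.10 (2267) and 0.10 (817), which run in the same order over a smaller range. Spearman's rho between coding length and the change was -0.58 over the 83 members (-0.61 to -0.55 over pairings) and -0.10 over 15389 protein-coding genes; all points share the same 4 granule libraries. With GC content rho was 0.34 over the members. In total RNA rho with coding length was -0.24, and -0.52 without knockout total replicate 1.

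**Figure D5:**
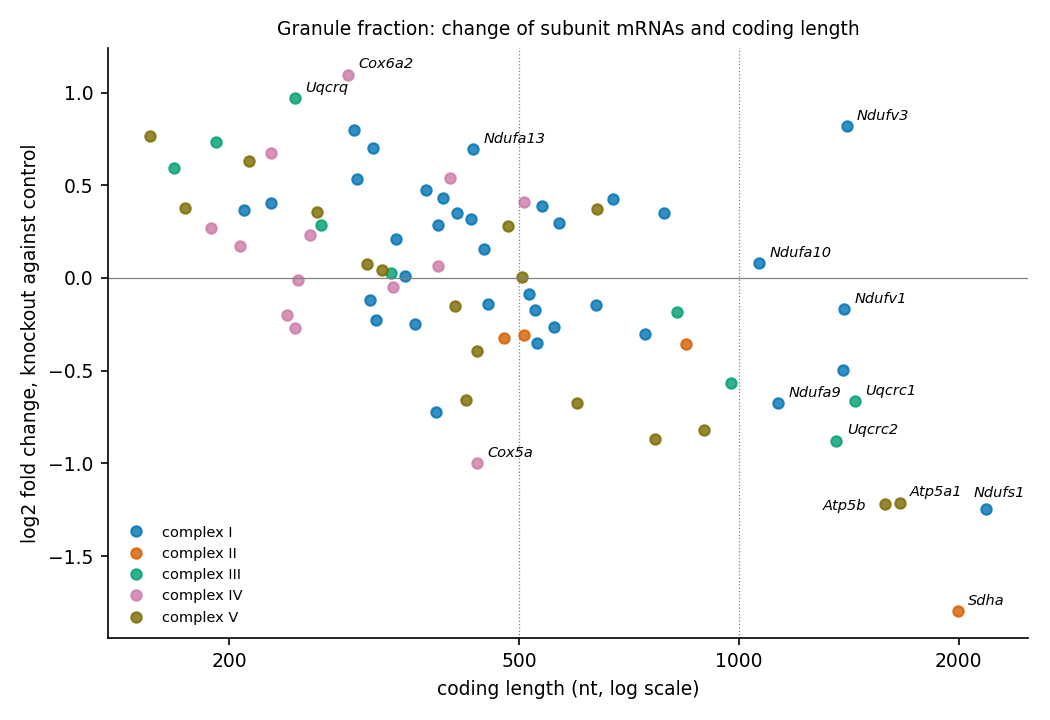
Log2 fold change of knockout against control in granule RNA (vertical axis) against coding length in nt (horizontal axis, log scale) for the 78 subunit mRNAs with a mean of at least 5 CPM, coloured by complex; dotted lines stand at 500 and 1000 nt. Of the 11 members to the right of 1000 nt, 9 lie below 0, with Sdha lowest at -1.80.

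The members are short mRNAs. Their median coding length was 411 nt against 1365 nt over all tested protein-coding genes, and the median principal transcript 838 nt against 2904 nt. The median number of DRACH motifs, the sequence context in which m6A is placed, was 17 per member transcript and 58 per transcript over all. Only 3 members (3.61%) had an internal exon of at least 400 nt, against 19.1% of all. Median GC content was 51.6% against 50.5%. Spearman's rho of the granule change with the number of DRACH motifs was -0.43 over the 83 members, and the number itself grows with length. The m6A of these mRNAs was not measured in the libraries used here.

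Other genes of the pathway were read from lists. Of 13 mitochondrially encoded subunits, mt-Co2, mt-Co3, mt-Atp6, mt-Atp8, mt-Nd3 and mt-Nd4l did not exceed 0.0455 CPM in any library. In contrast mt-Co1 stood at 1399 CPM or more in all 8. Why the counts of some are almost absent was not tested, and the mitochondrial shares given above hold almost none of their reads. None of the 7 testable mitochondrially encoded subunits was called in any comparison by the fit over 8 libraries, with median log2 values of 2.74 in total RNA and 2.68 in granule RNA between genotypes; without knockout total replicate 1 the total value was -0.38 and the granule value 2.67. Without that library all 7 were called higher in knockout granule than in control granule, as were 19.6% of all genes; 15 of the nuclear-encoded subunits were called higher and 15 lower there. Of 13 citric acid cycle enzymes, none rose in knockout granule against control granule and 6 fell, among them Cs (-1.36), Idh3a (-1.32), Dlst (-0.94), Suclg2 (-1.23) and Fh1 (-1.08). Over all tested genes 5.79% were called higher and 3.66% lower there. The median of this list was -1.05, beside 0.07 for the subunits. Without knockout total replicate 1 these medians were -1.06 and 0.06. In knockout granule against knockout total, Cs (-1.02), Dlst (-1.07) and Fh1 (-0.88) fell, where 8.47% of all genes did. In control granule against control total Sucla2 (1.77) rose, where 5.89% of all genes did. The list medians were -0.64 in knockout fractions and -0.15 in control fractions. Without knockout total replicate 1 they were -0.49 and -0.14.

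Of 51 tested assembly factors, which build the complexes without staying in them, Ndufaf1 (1.29) and Uqcc3 (1.55) rose in knockout granule against control granule and none fell. Against total RNA, 2 rose and 7 fell in the knockout, where 9.17% and 8.47% of all genes did, and Taco1 (-1.10) fell in the control. The assembly factors without knockout total replicate 1 had 13 higher and 11 lower calls in granule RNA, 3 and 15 in knockout fractions and 3 and 16 in control fractions. Among 13 regulators of mitochondrial biogenesis, Ppargc1b, a coactivator of respiratory genes, rose in knockout granule against control granule (1.95, adjusted p = 0.0097) and against knockout total (1.28, adjusted p = 0.019). Without that library 2 regulators were called higher and 5 lower in granule RNA between genotypes. Of 3 subunits outside the symbol rule, Cycs, cytochrome c, fell in knockout granule against total (-1.03, adjusted p = 0.043), and Ndufab1 and Atpif1 were not called. Of 76 tested mitochondrial ribosomal proteins, 1 rose and 4 fell in control granule against total, 2 rose and 10 fell in knockout granule against total, and 2 rose and 1 fell in granule RNA between genotypes. Over all genes the shares were 5.89% and 4.17%, 9.17% and 8.47%, and 5.79% and 3.66%. With knockout total replicate 1 left out the counts were 5 higher and 44 lower, 3 and 26, and 14 and 7, where 21.5% and 19.1%, 17.6% and 16.5%, and 19.6% and 19.4% of all genes were called. Cytosolic ribosomal proteins, another family of short and abundant mRNAs, had 82 tested members with a median of -0.40 in control granule against total, close to the -0.42 of the subunits, and 3 that fell in knockout granule against total. Without that library 6 of the 82 were called higher and 31 lower in control fractions, 2 and 18 in knockout fractions, and 13 and 5 in granule RNA. In total RNA between genotypes no gene of these lists was called over all 8 libraries, and without that library 1 assembly factor and 3 mitochondrial ribosomal proteins were called higher.

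Several members have near-identical copies, and how reads were shared between copies is not given in the sources used here. By matching stretches of 50 nt, 37 members share some exonic sequence with another annotated gene and 12 share at least 20% of it, mostly with processed pseudogenes: Atp5l (68.5%), Atp5h (47.9%) and Uqcrb (43.2%) most. Counts of these 12 are uncertain. None of Sdha, Ndufv3, Ndufs1, Cox6a2 and Uqcrc2 shares any such stretch, and Atp5b (0.857%) and Uqcrh (7.83%) share little. Exons of 26 members overlap an antisense gene, Ndufb6 the most at 39.0%.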

How the data were processed

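Poly(A) RNA of 8 libraries was sequenced on an Illumina HiSeq, per the labels' protocols. The authors deposited raw counts per Ensembl gene; the submitters' processing notes name STAR, DESeq2 and GRCm38 (mm10), while the counter, annotation and strand setting are not given in the sources used here. Of 39017 identifiers, 37693 matched GENCODE M21, from which symbols, coordinates and lengths were taken.

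Counts were fitted with edgeR 4.0.16 (R 4.3.3, limma 3.58.1) by the quasi-likelihood F-test, with TMM scaling, a minimum count of 10 in filterByExpr, a prior count of 2 and 1 mean per group over all 8 libraries (4 residual degrees of freedom). P-values were adjusted by Benjamini-Hochberg over 18952 genes, and a gene was called below 0.05. CPM are counts divided by TMM-scaled library size. GC content, length and shared sequence were computed from the annotation with Python 3.11.15, NumPy 2.4.6, pandas 2.3.3 and SciPy 1.17.1. A range over pairings gives the lowest and highest value when each group is reduced to single libraries.

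The members, lists and comparisons were chosen with earlier results of these data known, and sets by coding length or position in a complex after values were seen. Named genes were the catalytic and core subunits and the paralog pairs, the 3 highest and 3 lowest called members of each comparison, and the highest member per kilobase of each complex; called genes of pathway lists of up to 15 genes were named, and markers of cell types are given as summed levels. Values of some genes under this rule are not reported here. Other genes named beside these (such as Ndufa13, Ndufb10, Uqcrq, Cox7b and Atp5e) were chosen after their values were seen. Replicate numbers come from the labels, and the levels of same-numbered libraries showed no pairing. That check cannot tell whether they shared a culture or embryo. Alternatives were median-of-ratios scaling, library size alone, no filter, DESeq2 1.42.0, a replicate block, removal of a GC or length trend, fits to the compared groups alone, and omission of each library in turn. Promoters are those of RefSeq for GRCm38.p6.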

Additional observations from a re-analysis of the deposited data

How the results depend on the processing

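Each group has 2 libraries, so most calls rest on the shared estimate of spread. Counts of called members below are given without the share of all genes called under the same alternative. They show how calls depend on the fit and are not a result about the members. No called member changed direction under any alternative run; over members and alternatives, 118 values kept the call and 86 lost it. Calls went from 3 in control granule against total to 10 with no filter on low counts, 10 with DESeq2, 8 with a GC trend removed and 37 with only the groups compared. In knockout granule against total they went from 6 to 3 with library size alone, 16 with no filter, 15 with DESeq2, 20 with the GC trend removed and 0 with only the groups compared. Between genotypes in total RNA they went from 0 to 16 with no filter, 6 with DESeq2 and 2 with the GC trend removed. In granule RNA they went from 3 to 6 with no filter, 6 with DESeq2, 11 with the GC trend removed, 5 with the length trend removed and 54 with only the groups compared. For the interaction they went from 0 to 7 with no filter, 2 with DESeq2 and 2 with the GC trend removed.

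The levels showed no pairing by replicate number: deviations of same-numbered libraries correlated between -0.25 and 0.10 over the 6 pairs of groups. Levels alone cannot tell whether same-numbered libraries shared a culture or embryo. With the number as a replicate block the counts were 1, 2, 0, 1 and 0, in the order control fractions, knockout fractions, total RNA, granule RNA and interaction; with the block and the GC trend removed together they were 6, 19, 1, 7 and 0. With the numbers of knockout total exchanged, an alternative chosen after seeing the data because the 2 total groups correlated at -0.25, the block gave 0 called in total RNA. Principal transcript length was also added after seeing the data.

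Leaving out each library in turn gave 0 to 48 called in control fractions, 1 to 58 in knockout fractions, 0 to 65 in total RNA, 0 to 30 in granule RNA and 0 to 59 for the interaction. The high ends came from leaving out a knockout total library. Medians over the same 83 members ranged from -0.52 to -0.25, -0.14 to 0.60, -0.88 to -0.21, -0.11 to 0.15 and 0.18 to 1.03 in the same order. With a length trend removed the median was -0.25 in control fractions and -0.17 in granule RNA.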
